A study of Mus musculus with 8 samples.

Results

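The genes described here encode the carriers, enzymes and regulators of glycolysis, the pentose phosphate pathway and the tricarboxylic acid (TCA) cycle. They are 56 genes, taken by symbol from the 21080 gene symbols of the deposited tables, and the 56 all passed the filter on low coverage (a mean of 0.5 or more) and were tested. By role they were 3 sugar and lactate carriers, 3 hexokinases, 7 genes of upper glycolysis, 3 PFKFB enzymes, 6 genes of lower glycolysis with lactate dehydrogenase, 4 pyruvate dehydrogenase kinases, 6 genes of pyruvate entry into mitochondria, 7 pentose phosphate genes, 14 TCA cycle genes, and 3 genes for malic enzymes and citrate lyase.

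The libraries came from cultured macrophages of mice on a C57BL/6 background (BMDMs, differentiated from bone marrow with M-CSF), in 4 groups of 2 samples. Each sample pooled BMDMs of 2 mice, whose age the sources used here do not give. WT mice were sex-matched littermates that carried LysM-Cre, so both genotypes carry the Cre. Nudt21-cKO mice were Nudt21 fl/fl with LysM-Cre, in which Cre under the lysozyme M promoter deletes part of Nudt21, a subunit of the cleavage and polyadenylation machinery, in myeloid cells. Samples of each genotype were taken without stimulation (0 h) or after 50 ng/ml IFNγ overnight followed by 50 ng/ml LPS for 4 h. The treatment label reads the same for all 8 samples, so those titled 0hr were taken as unstimulated from their titles and the study's methods, and the summed coverage of 5 genes induced by IFNγ and LPS (Nos2, Il6, Tnf, Cxcl10 and Acod1) was 280 to 497 in them against 483806 to 651936 at 4 h. Nudt21 coverage was 718 and 641 in WT against 158 and 172 in cKO at 0 h, and 547 and 575 in WT against 142 and 115 in cKO at 4 h. Summed coverage was between 14950347 and 17954882 per library, of which the 56 genes held 0.808% to 1.11%.

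Glycolysis splits glucose into pyruvate in the cytosol. Its flow is set mainly by glucose uptake and by hexokinase, phosphofructokinase and pyruvate kinase, and PFKFB enzymes make or break down fructose 2,6-bisphosphate, the strongest activator of phosphofructokinase. The pentose phosphate pathway draws off glucose 6-phosphate to make NADPH and ribose, and the TCA cycle oxidizes acetyl-CoA made from pyruvate by pyruvate dehydrogenase, which PDK kinases switch off. Macrophages exposed to IFNγ and LPS are known for high glucose uptake and lactate release and for a TCA cycle that is interrupted at isocitrate dehydrogenase and at succinate dehydrogenase.

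The values were read as mean read coverage per base of a gene. The unit is not named in the tables, and the order of levels between genes and the isoenzyme shares rest on this reading. Genes were compared with limma on log2(coverage + 0.1), with each library centred on its median gene, and a gene passed at a Benjamini-Hochberg adjusted p under 0.05. Centring decides the direction of many stimulation effects. On the deposited scale the median tested gene stood 1.24 lower at 4 h than at 0 h in WT and 1.03 lower in cKO (log2), and centring moved every effect up by 1.47 in WT and by 1.20 in cKO. For the genotype effect, centring moved values by -0.09 at 0 h and by -0.36 at 4 h. Members that passed in the same direction under 5 scalings (centred, centred over genes with a mean of at least 10, quantile-normalized, equal totals and the deposited scale) are therefore described first. These are bulk samples, in which fewer cells of a type and less RNA per cell cannot be told apart.

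Of the 7 macrophage markers listed, all were present. On the deposited scale their summed coverage was 118243 to 126917 in WT against 121904 to 130748 in cKO at 0 h. At 4 h it was 50581 to 55388 in WT against 61847 to 64858 in cKO, without overlap. This gap at 4 h came from Cd68, at 12362 and 13101 in WT against 24827 and 28817 in cKO. Without Cd68 the sum of the other markers at 4 h was lower in cKO. Single macrophage markers differed between genotypes. At 0 h, 2 of the 7 were lower in cKO (Adgre1 at -0.75 and Fcgr1 at -0.99, log2), against 2.17% of all genes tested. At 4 h 3 were lower (Adgre1 at -0.82, Fcgr1 at -0.65 and Itgam at -0.47), against 8.71% of all genes. Cd68 was higher at 0.71 at 4 h, where 7.2% of all genes were higher. Of these calls, those of Fcgr1 at 0 h and Cd68 at 4 h held in all 5 scalings, and the Itgam libraries overlapped on the deposited scale. Nos2, the inducible nitric oxide synthase, was listed at 0 in the 4 libraries at 0 h and stood at 19483 and 20684 in WT against 44731 and 43709 in cKO at 4 h. The summed coverage of 7 neutrophil markers was 20453 to 22098 in WT against 23471 to 31050 in cKO at 0 h, without overlap, and 15792 to 19030 in WT against 18584 to 21475 in cKO at 4 h, with Ly6g between 0 and 7.37 in every library, and 0 of the 7 passed between genotypes. The 3 B cell and 3 T cell markers each summed to less than 5, the 3 stromal markers to 51.0 to 208, and the mast cell marker Cpa3 had 6.31 and 6.74 in WT against 0.77 to 4.19 in cKO at 0 h and 1.93 to 5.97 at 4 h. The 3 dendritic cell markers summed to 26.7 to 30.1 in WT against 33.4 to 44.5 in cKO at 0 h and to 7.43 to 8.57 in WT against 18.7 to 26.0 in cKO at 4 h, without overlap at either time and at 4 h mostly through Zbtb46, and none of the 3 passed singly. The part of these cell type markers in the results was not tested.

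At 0 h enzymes of glycolysis and of the pentose phosphate pathway were the most abundant members. In WT, Aldoa (aldolase) had a coverage of 21428 ± 1590 (SD, n = 2), Pkm (pyruvate kinase) 19320 ± 1189 (SD, n = 2) and Taldo1 (transaldolase) 16728 ± 1151 (SD, n = 2). Next in order came Eno1 (enolase) at 10773, Ldha (lactate dehydrogenase A) at 9263 and Pgd (6-phosphogluconate dehydrogenase) at 8238, and the lowest members were Me1 at 38.6 and Pdk4 at 3.20. The libraries of Aldoa, at 20304 and 22553, lay just above those of Pkm, at 18480 and 20161, and those of Ldha, at 8927 and 9599, just above those of Pgd, at 7797 and 8678, so the order of such neighbours is not firm. In WT at 4 h the order had changed, with Pkm at 15183, Aldoa at 13592 and the hexokinase Hk3 at 12738, which had been in place 14 at 0 h with 2902. In cKO the first 3 at 4 h were Aldoa at 24309, Pkm at 20747 and Hk3 at 19760. Gapdh stood at only 1335 in WT at 0 h, and its value is uncertain, since 43 other annotated genes share a stretch of at least 300 bases at 95% identity or more with it. Such copies were found for 14 of the 56 members, and only Gapdh and Rpia had over 5.

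**Figure D1:**
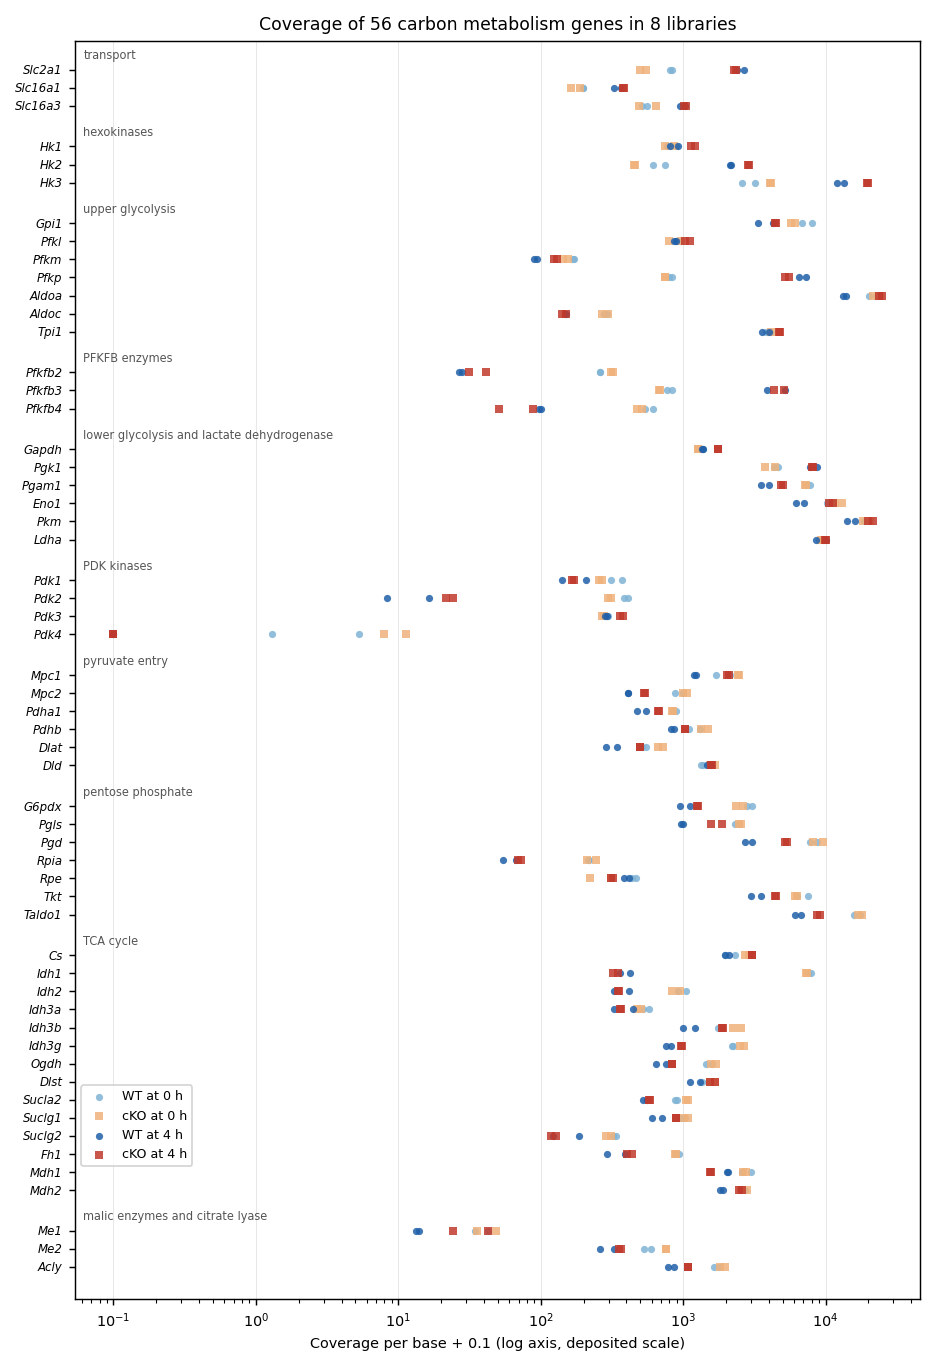
Coverage per base (log axis, deposited scale, 0.1 added) of each of the 56 genes, with 1 point for each of the 8 libraries and the genes grouped by role. Pfkp, Pfkfb3, Hk2, Hk3 and Slc2a1 lie to the right at 4 h in both genotypes, Idh1, Pdk2, Pfkfb2 and Pfkfb4 lie to the left, and Pdk4 is listed at 0 in the 4 libraries at 4 h.

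The first comparison asked which of these genes changed on stimulation with IFNγ and LPS. In WT, 8 members (14.3%) were higher at 4 h in all 5 scalings and 6 (10.7%) were lower, against 12.6% and 21.5% of all 16284 genes tested. Pdk4, among the 6, passed the filter on low coverage only through the libraries at 0 h, which favours a fall, and without it 5 of 55 members (9.09%) were lower in WT and in cKO. The 8 were the glucose carrier Slc2a1, the lactate carriers Slc16a1 and Slc16a3, the hexokinases Hk2 and Hk3, the phosphofructokinase Pfkp, the regulator Pfkfb3 and the phosphoglycerate kinase Pgk1. The 6 were Pfkfb2, Pfkfb4, Pdk2, Pdk4, Rpia and Idh1. In cKO the same 8 and 6 genes passed in all 5 scalings, with Hk1, Gapdh and Pdk3 also higher, which makes 11 (19.6%) higher and 6 (10.7%) lower against 13.9% and 21.8% of all genes. The share of members that rose lay slightly above that of all genes, and the share that fell lay below it.

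Among the carriers, coverage of Slc2a1 (chr4:119108745-119137330, GRCm38), the main glucose transporter of most cells, was 803 and 832 in WT at 0 h and 2684 and 2380 at 4 h. In cKO it was 500 and 549 at 0 h and 2345 and 2272 at 4 h. The libraries at 4 h did not overlap those at 0 h, and the centred log2 change was 3.10 in WT (SE 0.15, adjusted p = 7.48e-05, limma) and 3.34 in cKO. On the deposited scale it was 1.63 and 2.14. Slc16a1 and Slc16a3 move lactate across the plasma membrane. Their mean coverage lay below that of Slc2a1, except for Slc16a3 in cKO at 0 h, at 569 against 525. Slc16a1 went from 197 and 197 to 329 and 365 in WT and from 163 and 188 to 383 and 376 in cKO. Slc16a3 went from 516 and 557 to 1036 and 958 in WT and from 493 and 645 to 1010 and 1052 in cKO. Their centred changes were 2.28 and 2.36 in WT against 2.31 and 2.07 in cKO, and 0.81 and 0.90 in WT against 1.11 and 0.87 in cKO on the deposited scale.

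Of the hexokinases, which trap glucose as glucose 6-phosphate, Hk3 (chr13:55005985-55021475) was the most abundant in every library. Its coverage was 2589 and 3214 in WT against 4143 and 4084 in cKO at 0 h, and 12044 and 13431 in WT against 19635 and 19886 in cKO at 4 h. It rose by a centred log2 change of 3.61 in WT (SE 0.14, adjusted p = 3.84e-05, limma) and 3.47 in cKO. Its centred genotype effect was 0.42 at 0 h and 0.28 at 4 h, and neither passed. Hk2, the inducible form, went from 617 and 747 to 2120 and 2151 in WT and from 450 and 460 to 2835 and 2894 in cKO, with changes of 3.12 and 3.86. Hk1 was at 767 and 896 in WT at 0 h and at 813 and 918 at 4 h, so its WT libraries overlapped on the deposited scale, where the change was 0.06 against 1.53 after centring. In cKO it went from 743 and 859 to 1133 and 1215.

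Pfkp (chr13:6579874-6649060), the platelet-type phosphofructokinase that catalyses the committed step of glycolysis, had the largest rise of the 56 genes in WT. Its coverage was 795 and 841 in WT against 744 and 743 in cKO at 0 h, and 6510 and 7261 in WT against 5518 and 5173 in cKO at 4 h. The centred log2 change was 4.54 in WT (SE 0.10, adjusted p = 1.47e-05, limma) and 4.05 in cKO, and 3.07 and 2.84 on the deposited scale. The other phosphofructokinases passed as higher after centring but not in all 5 scalings. Pfkl had 889 and 955 in WT at 0 h and 897 and 864 at 4 h, with centred changes of 1.40 in WT and 1.495 in cKO and deposited-scale changes of -0.065 and 0.29. Pfkm had 172 and 167 in WT at 0 h and 93.5 and 90.2 at 4 h, with centred changes of 0.58 and 0.97 and deposited-scale changes of -0.89 and -0.23.

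The PFKFB enzymes moved in opposite directions. Pfkfb3 (chr2:11471430-11554071), the form with the strongest kinase over phosphatase activity, went from 774 and 841 to 3898 and 5198 in WT and from 676 and 684 to 5108 and 4350 in cKO. It rose by 3.95 in WT (SE 0.12, adjusted p = 2.64e-05, limma) and 3.99 in cKO after centring. Pfkfb2 fell from 260 and 262 to 26.7 and 27.9 in WT and from 323 and 310 to 41.5 and 31.3 in cKO, with centred changes of -1.79 and -1.93. Pfkfb4 fell from 541 and 619 to 97.0 and 99.7 in WT and from 477 and 514 to 88.6 and 51.2 in cKO, with centred changes of -1.09 and -1.68. On the deposited scale these falls were larger, at -3.25 for Pfkfb2 and -2.56 for Pfkfb4 in WT.

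Pgk1 (chrX:106187100-106203699), which makes the first ATP of glycolysis, was the only member of lower glycolysis that rose in all 5 scalings in both genotypes. Its coverage went from 4379 and 4659 to 7780 and 8725 in WT and from 3762 and 4409 to 8155 and 8026 in cKO. The centred change was 2.33 in WT (SE 0.10, adjusted p = 4.55e-05, limma) and 2.19 in cKO, and 0.87 and 0.99 on the deposited scale. Of its neighbours in the pathway, Pkm stood at 18480 and 20161 in WT at 0 h and at 14204 and 16163 at 4 h, and Ldha at 8927 and 9599 and at 8630 and 9999, with centred changes of 1.12 and 1.47 that passed. Pgk1 shares sequence with 4 other annotated genes, so its value is less certain than those of Pfkp and Pfkfb3, for which none was found.

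The 8 genes that rose in every scaling were also looked at for the letters ACGTG, the core of the hypoxia response element, since several of them are textbook targets of the hypoxia-inducible factor HIF1. RefSeq promoter windows on GRCm38.p6, from 250 bases before to 50 bases after each start, were at hand for 54 of the 56 members. ACGTG stood on either strand in 7 of the 8 genes, in 2 of the 6 genes that fell and in 16 of the 40 others. This makes 46.3% of the 54 members, against 21.8% of 27025 genes, and 43.0% of 79 member windows against 19.6% of 32851 windows. The E-box CACGTG contains the same letters, so a match to one can be a match to the other. A match is a description of the sequence and not a binding site. A start is called internal where it lies inside the gene's annotated span. The match nearest upstream of a start is printed for each of the 7 genes, 5′ to 3′ on the gene's strand with 12 bases on each side and the 5 letters in capitals (CACGT where the match is on the other strand), and Pfkp had none in its window.

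Slc2a1, 36 bases before the start, plus strand, chr4:119108697-119108725: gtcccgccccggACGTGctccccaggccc

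Slc16a1, 199 bases before, plus strand, chr3:104638453-104638481: cggcgccgggtcACGTGgcgggaaggggg

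Slc16a3, 14 bases before an internal start, plus strand, chr11:120949041-120949069: cgtgcgcgggggACGTGccgcgcgacgga

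Hk2, 52 bases before, minus strand, chr6:82774490-82774518: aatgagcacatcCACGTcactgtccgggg

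Hk3, 156 bases before an internal start, minus strand, chr13:55021525-55021553: actacattttgaCACGTtgcctagttcaa

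Pfkfb3, 52 bases before an internal start, minus strand, chr2:11502126-11502154: acccttctctccACGTGaaagggggctgg

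Pgk1, 131 bases before, plus strand, chrX:106186957-106186985: aaatggaagtagCACGTctcactagtctc

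Among the genes that fell, Idh1 (chr1:65158616-65186479), the cytosolic NADP-dependent isocitrate dehydrogenase, had the highest level before stimulation. Its coverage was 7579 and 7912 in WT against 7333 and 7405 in cKO at 0 h, and 360 and 426 in WT against 347 and 323 in cKO at 4 h. It fell by 2.84 in WT on the centred log2 scale (SE 0.09, adjusted p = 2.63e-05, limma) and by 3.26 in cKO, and the deposited-scale changes were -4.30 and -4.46. Idh2, the mitochondrial NADP-dependent form, went from 1054 and 921 to 326 and 419 in WT and from 833 and 954 to 351 and 354 in cKO. Its deposited-scale changes of -1.41 and -1.34 lay near those of the median gene, and its centred changes of 0.05 and -0.14 did not pass.

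Pdk2 (chr11:95026258-95041371), a kinase that inhibits pyruvate dehydrogenase, went from 408 and 382 to 8.26 and 16.3 in WT and from 295 and 310 to 24.1 and 21.6 in cKO. The centred change was -3.61 in WT (SE 0.25, adjusted p = 0.000203, limma) and -2.52 in cKO. Pdk4, with 1.20 and 5.20 in WT against 11.3 and 7.85 in cKO at 0 h, was listed at 0 in all 4 libraries at 4 h, so no fold is given. Pdk1 had 309 and 374 in WT at 0 h and 141 and 208 at 4 h, and Pdk3 had 290 and 297 and then 281 and 290, with centred changes of 0.48 and 1.43 that passed. In the pentose phosphate pathway, Rpia, the ribose 5-phosphate isomerase, went from 219 and 216 to 54.6 and 67.5 in WT and from 210 and 243 to 73.1 and 69.1 in cKO, with centred changes of -0.37 and -0.46. Its value is uncertain because 6 other annotated genes share sequence with it.

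For the other members the scaling decided the direction or the call. After centring on the median gene, 40 of the 56 (71.4%) passed as higher and 6 (10.7%) as lower in WT, against 37.3% and 22.9% of all genes. In cKO 39 passed as higher and 6 as lower, against 35.5% and 23.1% of all genes. On the deposited scale 8 members were higher and 37 lower in WT and 11 and 27 in cKO, against 12.9% and 58.2% of all genes in WT and 14.5% and 54.5% in cKO, so the same turn was seen in all genes. With equal totals the counts were 8 and 36 in WT (13.3% and 56.9% of all genes) and 11 and 28 in cKO (14.2% and 55.3%), and after quantile normalization 14 and 26 in both genotypes (24.1% and 33.0% of all genes in WT, 23.0% and 33.4% in cKO). Relative to the median gene the members as a group stood higher at 4 h. Their median centred log2 change was 0.75 in WT and 0.81 in cKO, against 0.23 and 0.17 for all genes tested, and on the deposited scale it was -0.71 and -0.39 against -1.24 and -1.03. After quantile normalization the medians of members and of all genes were close, at -0.21 and -0.24 in WT and -0.27 and -0.27 in cKO.

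The blocks differed in where they lay on the deposited scale. In WT the median change was -0.17 for the 6 genes of lower glycolysis, -0.66 for upper glycolysis, -0.71 for pyruvate entry, -0.71 for the TCA cycle and -1.38 for the pentose phosphate pathway. In cKO the same medians were 0.09, 0.10, -0.39, -0.84 and -0.74. After centring, 9 of 14 TCA cycle genes passed as higher and 1 as lower in WT, and 8 and 1 in cKO, while 2 of 7 pentose phosphate genes passed as higher and 1 as lower in WT and 4 and 1 in cKO. In these 5 blocks the members that were higher in all 5 scalings were Pfkp and Pgk1, and in cKO also Gapdh.

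Dld, the dihydrolipoyl dehydrogenase shared by pyruvate and oxoglutarate dehydrogenase, had the largest centred change of the pyruvate entry block. Its coverage was 1389 and 1342 in WT against 1675 and 1557 in cKO at 0 h, and 1574 and 1475 in WT against 1573 and 1589 in cKO at 4 h. The centred change was 1.63 in WT (SE 0.15, adjusted p = 0.000516, limma) and 1.17 in cKO, and on the deposited scale 0.16 in WT and -0.03 in cKO. Me2, the mitochondrial malic enzyme, had 532 and 597 in WT against 752 and 754 in cKO at 0 h, and 262 and 327 in WT against 368 and 356 in cKO at 4 h. Its centred change was 0.52 in WT (SE 0.11, adjusted p = 0.00911, limma) and 0.14 in cKO, where it did not pass, and on the deposited scale it was -0.95 and -1.06. The NADPH-producing enzymes of the pentose phosphate pathway, G6pdx and Pgd, went from 2792 and 3036 to 944 and 1113 and from 7797 and 8678 to 2722 and 3038 in WT. Their centred changes in WT were -0.04 and -0.05, and neither passed, while in cKO they were 0.22, which did not pass, and 0.46, which passed as higher. Citrate synthase (Cs) had 1971 and 2306 at 0 h and 1969 and 2103 at 4 h in WT, with a centred change of 1.40 that passed.

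**Figure D2:**
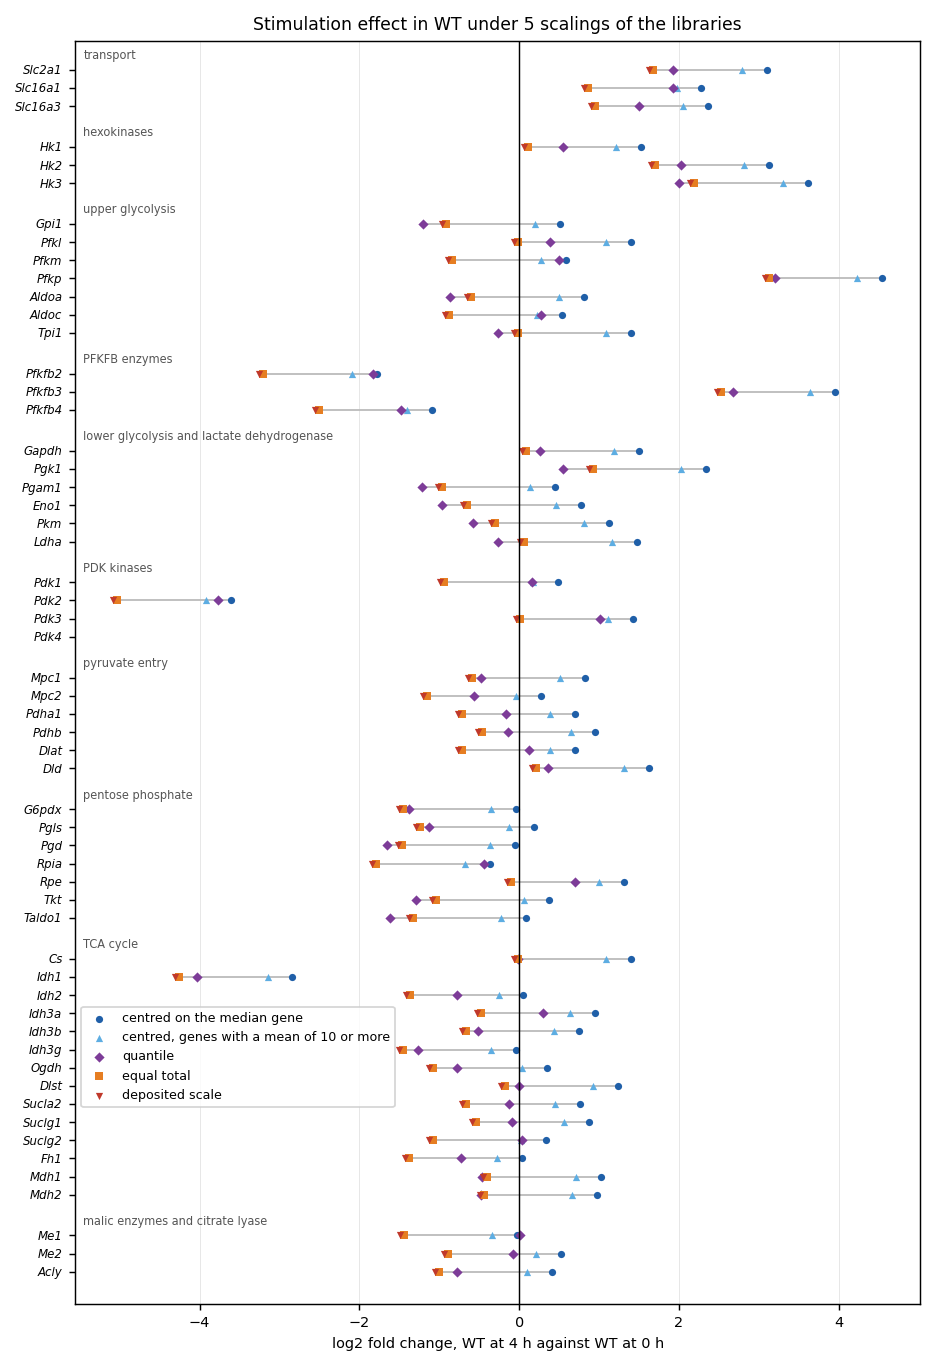
Log2 fold change of WT at 4 h against WT at 0 h for each gene under 5 scalings of the libraries (points), joined by a line from the lowest to the highest value; Pdk4 is left out because it is listed at 0 at 4 h. The 8 genes named as higher lie right of 0 and Pfkfb2, Pfkfb4, Pdk2, Rpia and Idh1 lie left of 0 for each scaling, while most other lines cross 0.

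A share within an enzyme family is taken inside 1 library, so a constant factor per library does not change it, while quantile normalization could. The shares are on the deposited scale. These shares were chosen after the values were seen, and an exact permutation test of 2 libraries against 2 cannot reach a p under 0.05, so none is given. Pfkp held 42.8% and 42.8% of phosphofructokinase coverage in WT at 0 h and 86.8% and 88.4% at 4 h, and in cKO 44.3% and 39.8% and then 81.7% and 81.6%. Pfkfb3 held 49.2% and 48.8% of the coverage of the 3 PFKFB enzymes in WT at 0 h and 96.9% and 97.6% at 4 h, and in cKO 45.8% and 45.4% and then 97.5% and 98.1%. Thus both families were split among isoenzymes at rest and led by 1 isoenzyme after stimulation, in each library of both genotypes.

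Among the PDK kinases, the share of Pdk2 went from 40.5% and 36.1% to 1.92% and 3.17% in WT and from 35.1% and 36.2% to 4.38% and 3.78% in cKO, and Pdk3 held 56.4% to 66.4% at 4 h. Idh1 held 87.8% and 89.6% of the coverage of Idh1 and Idh2 in WT at 0 h and 52.5% and 50.4% at 4 h, and in cKO 89.8% and 88.6% and then 49.7% and 47.7%.

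At 4 h the shares of WT and cKO did not overlap for most isoenzymes of the families looked at, Pfkp among them. Non-overlap of 2 libraries against 2 is therefore not particular to the hexokinases and malate dehydrogenases, which are described here. Hk3 held 65.2% and 66.2% of hexokinase coverage in WT at 0 h and 77.6% and 75.6% in cKO, and at 4 h 80.4% and 81.4% in WT against 83.2% and 82.9% in cKO. The share of Hk2 at 0 h was 15.5% and 15.4% in WT against 8.44% and 8.51% in cKO, and at 4 h 14.2% and 13.0% in WT against 12.0% and 12.1% in cKO. Mdh1, the cytosolic malate dehydrogenase, held 52.5% and 50.5% of the coverage of Mdh1 and Mdh2 in WT against 50.9% and 49.6% in cKO at 0 h. At 4 h it held 52.6% and 52.0% in WT against 38.3% and 37.5% in cKO, so that the cKO libraries at 4 h lay below the other 6.

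**Figure D3:**
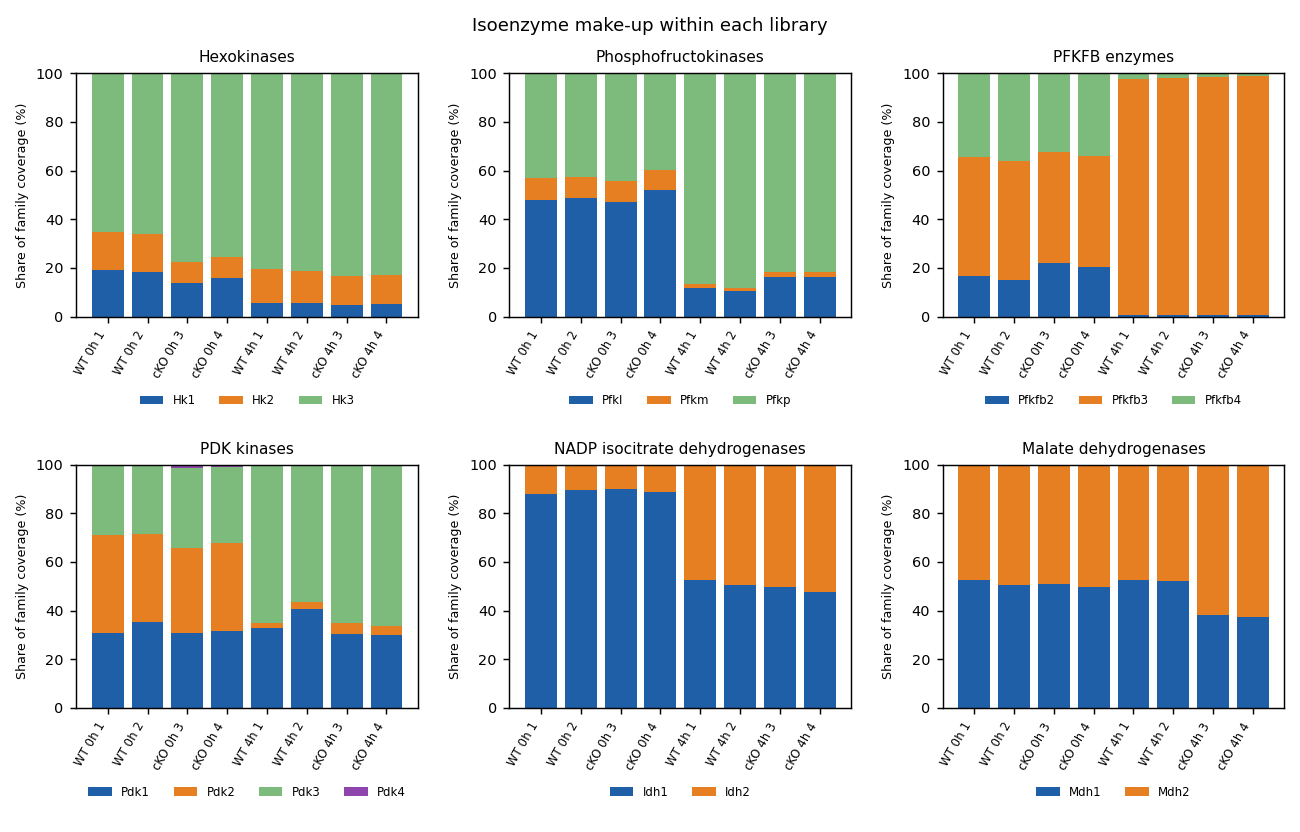
Share (%) of each isoenzyme in the summed coverage of its family, with 1 stacked bar for each of the 8 libraries. Pfkp and Pfkfb3 take most of their families at 4 h in both genotypes, Idh1 drops from 87.8% or more to 52.5% or less, and Mdh1 is lower only in the bars of cKO at 4 h.

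The stimulation effects of the 56 genes lay close together in WT and cKO. The centred log2 change had the same sign in WT and cKO for 51 of the 56, with a Pearson r of 0.96 across genes, given as a description, since genes are not independent replicates. Both values include Pdk4, whose changes rest on the pseudocount because it was listed at 0 at 4 h. The r was not computed without it. For each gene the difference of the changes in WT and cKO, which is also the difference of the genotype effect between 4 h and 0 h, was tested as an interaction. With limma, 0 members passed in either direction, against 1.07% higher and 1.06% lower of all genes, and 8 members (14.3%) had an unadjusted p under 0.05, against 21.6% of all genes. The largest differences among these were 1.09 for Pdk2, 0.73 for Hk2 (SE 0.20, adjusted p = 0.131, limma), -0.62 for Mdh1 (SE 0.17, adjusted p = 0.137, limma) and 0.51 for Pgd. The median half-width of the 95% confidence interval was 0.42, which is not adjusted for the number of genes, and larger differences also did not pass.

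**Figure D4:**
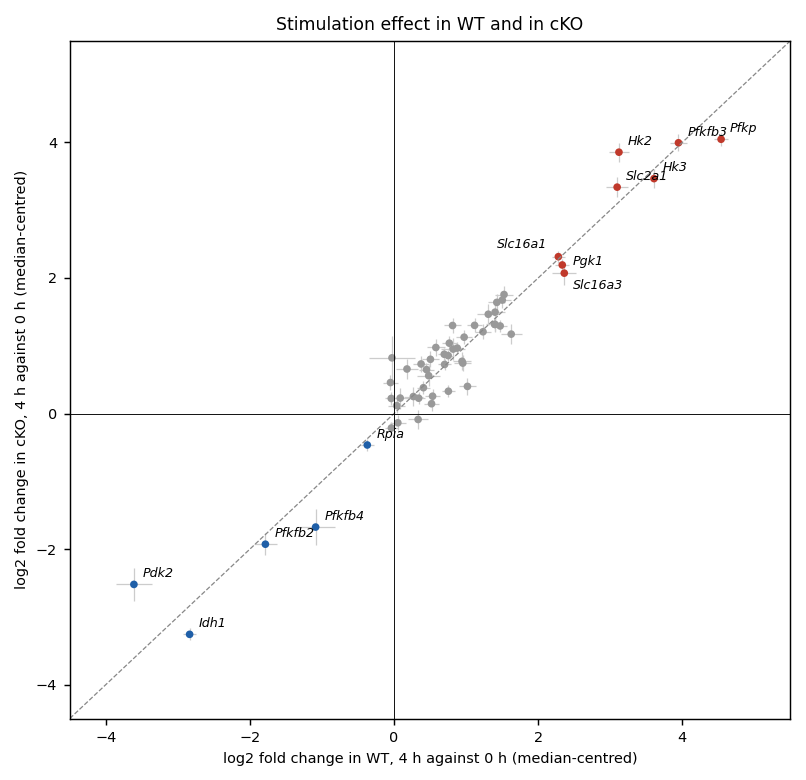
Log2 fold change at 4 h against 0 h in WT (x axis) and in cKO (y axis) after centring, with 1 point for each gene except Pdk4 and bars of 1 standard error; red and blue points passed as higher or lower in all 5 scalings in both genotypes and the dashed line marks equal changes. The points lie along the line from Pdk2 and Idh1 at the bottom left to Pfkp and Pfkfb3 at the top right.

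The next comparison asked how cKO differed from WT before stimulation. At 0 h, 0 members were higher and 1 was lower in cKO, against 2.79% and 2.17% of all genes, and 14 members (25.0%) had an unadjusted p under 0.05 in limma, against 21.9% of all genes. The member that passed was Rpe (chr1:66700797-66719805), the ribulose phosphate epimerase of the pentose phosphate pathway. Its call did not hold on the deposited scale or with equal totals. Its coverage at 0 h was 464 and 436 in WT against 221 and 312 in cKO, a log2 change of -0.87 (SE 0.15, adjusted p = 0.0486, limma), and it passed in none of the 8 fits that each left out 1 library. Slc2a1 passed as lower instead in the fits without either WT library at 4 h. Rpe overlaps its neighbour Kansl1l, which had 221 and 249 in WT against 221 and 259 in cKO at 0 h, and reads in the overlap could count for either. By the study's rule of a fold change above 1.5 with an unadjusted p under 0.05, applied to the centred values, 1 member (Pdk4) was higher and 3 (Rpe, Slc2a1 and Hk2) were lower at 0 h, against 6.39% and 6.21% of all genes.

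Slc2a1 and Hk2, the carrier and the kinase at the entry of glycolysis, were next after Rpe in size among the members that lay lower in cKO at 0 h. The Slc2a1 libraries of cKO, at 500 and 549, lay below those of WT, at 803 and 832, with a log2 change of -0.74 (SE 0.15, adjusted p = 0.0676, limma). It did not pass after centring on the median gene and passed in the other 4 scalings, at -0.64 on the deposited scale. Hk2, at 450 and 460 in cKO and 617 and 747 in WT, had a log2 change of -0.67 (SE 0.14, adjusted p = 0.0705, limma) and passed with equal totals and after quantile normalization. The median log2 change of the members was -0.08, with 20 positive and 36 negative. Their median absolute change was 0.17, against 0.30 for all genes. In WT at 0 h the members other than Me1 and Pdk4 had a coverage above at least 62.7% of all listed genes. The 2 absolute changes are thus not matched for coverage.

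At 4 h, 2 members were higher in cKO (Pgd and Idh3b) and 5 were lower (Pfkp, Mdh1, Idh1, Suclg2 and Rpe), 3.57% and 8.93% of the 56, against 7.2% and 8.71% of all genes. By the study's rule, applied to the centred values, 1 member (Me1) was higher and 6 were lower, with Pfkfb4 added to the 5, against 9.88% and 10.6% of all genes. On the deposited scale the direction of this count turned, with 10 members higher and 0 lower by the same rule, against 20.7% and 4.39% of all genes. The median log2 change of the members was -0.03, with 27 positive and 29 negative. Their median absolute change was 0.24, against 0.41 for all genes, again not matched for coverage. These calls rest on few libraries. Each of the 7 lost its call in at least 1 fit without 1 library, 0 members passed when only the 4 samples at 4 h were fitted, and on the deposited scale 15 members passed as higher and 0 as lower, where 19.6% and 3.38% of all genes did.

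Pgd (chr4:149149991-149166705), the second NADPH-producing enzyme of the pentose phosphate pathway, was higher in cKO at 4 h in all 5 scalings. Its coverage was 2722 and 3038 in WT against 5209 and 5342 in cKO at 4 h, against 7797 and 8678 in WT against 8173 and 9557 in cKO at 0 h. The groups did not overlap at 4 h, and the log2 change was 0.52 (SE 0.11, adjusted p = 0.037, limma). Idh3b, the beta subunit of the NAD-dependent isocitrate dehydrogenase, had 994 and 1218 in WT against 1898 and 1867 in cKO at 4 h, with a log2 change of 0.41 (SE 0.08, adjusted p = 0.0354, limma). It did not pass with equal totals or after quantile normalization.

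Of the genes that were lower in cKO, Mdh1 (chr11:21556692-21571934) had 2019 and 2056 in WT against 1536 and 1565 in cKO at 4 h, a log2 change of -0.75 (SE 0.12, adjusted p = 0.0215, limma). Mdh2, its mitochondrial counterpart, had 1820 and 1901 in WT against 2476 and 2608 in cKO, with a centred log2 change of 0.09 that did not pass. Pfkp had a log2 change of -0.72 (SE 0.10, adjusted p = 0.014, limma), from the 6510 and 7261 and the 5518 and 5173 given with its rise. Idh1 had a log2 change of -0.59, but its cKO libraries, at 347 and 323, lay only a little under the lower WT library at 360. Suclg2, a subunit of succinate-CoA ligase, had 122 and 185 in WT against 128 and 118 in cKO, so these groups overlapped on the deposited scale, and the centred log2 change was -0.65. Rpe had 387 and 419 in WT against 311 and 319 in cKO, a log2 change of -0.71. On the deposited scale Pfkp, Mdh1, Idh1, Suclg2 and Rpe kept a negative change, from -0.23 to -0.39, and did not pass.

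**Figure D5:**
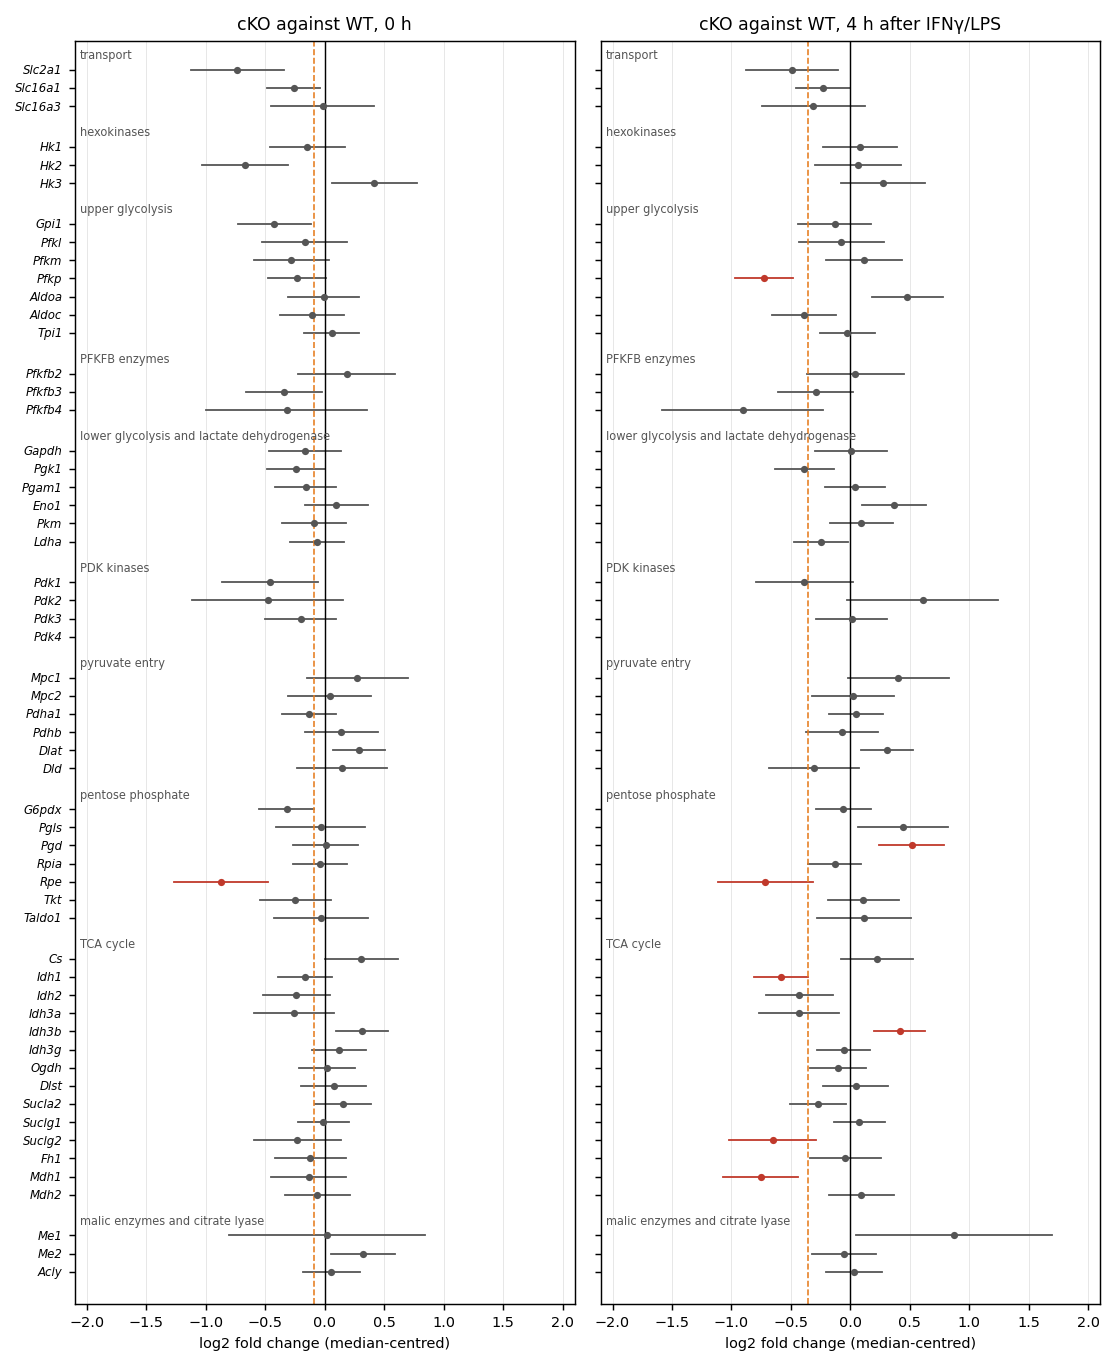
Log2 fold change of cKO against WT after centring at 0 h (left) and 4 h (right) with 95% confidence intervals, genes that passed in red, and the dashed line at the centred value that means no change on the deposited scale; Pdk4 is left out. Most intervals include 0 at both times, Rpe is the only red point at 0 h, and Pgd and Idh3b lie to the right and 5 genes to the left at 4 h.

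Other genes of these pathways were taken from a list of 45 that holds further carriers, isoenzymes and accessory enzymes, of which 40 were tested. After centring, 18 (45.0%) passed as higher and 14 (35.0%) as lower on stimulation in WT, against 37.3% and 22.9% of all genes, and 15 (37.5%) and 14 (35.0%) in cKO, against 35.5% and 23.1%. In all 5 scalings 2 (5.0%) were higher and 13 (32.5%) lower in each genotype, against 12.6% and 21.5% of all genes in WT and 13.9% and 21.8% in cKO. Fbp1 is among these genes and passed the filter on low coverage only through the cKO libraries at 0 h. Without it, 17 of 39 were higher and 14 lower in WT and 15 and 13 in cKO after centring, and 12 were lower in cKO in all 5 scalings. The 2 that were higher in all 5 scalings were Slc2a6 and Gpd2. Slc2a6, a hexose carrier of lysosomes, went from 333 and 359 to 11569 and 10649 in WT and from 281 and 367 to 19418 and 20314 in cKO, with centred changes of 6.47 and 7.15. Gpd2, the mitochondrial glycerol 3-phosphate dehydrogenase, went from 235 and 284 to 1517 and 1563 in WT, a change of 4.04. Shpk, the sedoheptulose kinase, went from 49.97 and 63.3 to 0.522 and 4.50 in WT and from 44.1 and 37.7 to 1.13 and 0.811 in cKO, with centred changes of -3.59 and -4.07. The WT value was -2.26 without replicate 1 at 4 h and -4.91 without replicate 2 at 4 h, and the change lost its call without either WT library at 0 h and, in cKO, without replicate 3 at 0 h or replicate 4 at 4 h.

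Between genotypes, 2 of the 40 (5.0%) were higher in cKO and 0 lower at 0 h, against 2.79% and 2.17% of all genes, and 1 (2.5%) was higher and 2 (5.0%) were lower at 4 h, against 7.2% and 8.71%. Without Fbp1, 1 of 39 (2.56%) was higher at 0 h, close to the share of all genes. Gpd2 was at 235 and 284 in WT against 459 and 542 in cKO at 0 h, a log2 change of 0.85 (SE 0.14, adjusted p = 0.0437, limma). Fbp1, fructose bisphosphatase 1, was listed at 0 in both WT libraries at 0 h and had 1.91 and 5.63 in cKO, and it was listed at 0 in the 4 libraries at 4 h, so no fold is given. At 4 h Ldhb, the B subunit of lactate dehydrogenase, had 278 and 214 in WT against 129 and 98.8 in cKO, with a log2 change of -1.47 that passed in all 5 scalings, after 1280 and 1163 in WT against 622 and 629 in cKO at 0 h. Pdp2, a pyruvate dehydrogenase phosphatase, had 2.83 and 6.03 in WT against 14.0 and 28.4 in cKO, and Got1, the cytosolic aspartate aminotransferase, had 525 and 621 in WT against 506 and 538 in cKO. Neither of these calls held in all 5 scalings, nor in any of the 8 fits without 1 library, in which the log2 change of Pdp2 was between 1.36 and 2.41, and on the deposited scale Got1 was at -0.13 with overlapping libraries.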

How the data were processed

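Total RNA of the 8 samples was made into libraries with a NEBNext Ultra kit and sequenced in paired ends. Per the submitters' processing notes, the authors used HISAT2 2.2.1 and StringTie 2.1.7 with GRCm38 and deposited 1 coverage signal per RefSeq gene symbol and library, in 1 table per time. Their unit is not named and was read from the values. It averages over all annotated bases, so a change in 3′ end use and a change in amount cannot be told apart in it, and without read numbers it allows no counting interval. Columns of the authors' own log2 fold changes and p-values were not used, and 0 columns of sample values were set aside.

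The members and lists were chosen with earlier results of these data known. limma 3.58.1 in R 4.3.3 was fitted with 4 group means to log2(coverage + 0.1) of the 16284 genes whose mean reached 0.5, each library centred on its median over these genes. A pseudocount understates changes of low genes. The study's rule was counted beside the adjusted p. P-values were adjusted over all genes tested, and the fit was tested on simulated data. Alternatives changed the scaling, the pseudocount, the low-value filter, the prior variance, the samples fitted, or added a replicate block. Genes named singly were Nudt21, the member of each role with the largest change among those that passed and its isoenzymes, and every member that passed between genotypes. Gapdh, Pkm, Ldha, Cs, Aldoa, Taldo1, G6pdx, Rpia and Slc16a1 with its relatives were added after values were seen. Copies were sought with blastn 2.17.0 in GENCODE M21 transcripts (at least 95% identity over 300 bases), and positions and promoters came from RefSeq on GRCm38.p6. The count tests that had been planned could not be run on coverage.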

Additional observations from a re-analysis of the deposited data

Results flagged for a closer look

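The genotype effect on Fbp1, fructose bisphosphatase 1, differed between the times by a fitted -5.35 on the log2 scale in limma's interaction. The gene passed the filter on low values only through coverage of 1.91 and 5.63 in the 2 cKO libraries at 0 h, with the other 6 libraries listed at 0, so its test had to favour a difference and is given no weight, and the fitted size depends on the pseudocount of 0.1 and is no bound.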

How the results depend on the processing

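With 2 samples per group the spread is poorly known, and the cause of each change given here was not tested. Stimulation counts of members (higher and lower) turned with the scaling. They were 8 and 37 in WT and 11 and 27 in cKO on the deposited scale, 8 and 36 and 11 and 28 with equal totals, 14 and 26 in both after quantile normalization, and 8 and 11 higher when all 5 scalings were required (chosen after seeing the data). For the genotype at 0 h, 0 were lower without a filter, with only the 4 samples compared and in all 5 scalings, 2 with equal totals and with centring over genes with a mean of at least 10, 3 after quantile normalization and by the study's rule (1 higher), and 5 with an intensity trend (1 higher). For the genotype at 4 h, higher and lower counts were 0 and 3 without a filter, 5 higher with a mean of at least 1, 15 and 0 on the deposited scale, 6 and 12 with an intensity trend and 0 and 0 with only the 4 samples; 2 were lower with equal totals and 3 after quantile normalization, 1 was higher by the study's rule (10 and 0 on the deposited scale, and 1 and 2 at 0 h, both chosen after seeing the data), and 1 and 0 passed in all 5 scalings. The interaction had 1 member higher and 2 lower with an intensity trend, and 2 and 1 by the study's rule. Without 1 replicate in turn, the counts were 0 to 1 higher and 0 to 1 lower at 0 h, 0 to 1 higher and 0 to 5 lower at 4 h, 34 to 40 higher and 4 to 6 lower in WT, 33 to 40 higher and 5 to 6 lower in cKO, and 0 to 1 higher for the interaction; a lone sample was assumed to vary like the other groups. The 4 h genotype count was lowest without cKO replicate 4 at 4 h (0 and 0).

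Single effects that turned were Dld in cKO (-0.0301 on the deposited scale, -0.0688 with equal totals), Rpe in WT (-0.16 and -0.11) and Me2 (-0.95 and -0.90 in WT, -1.06 and -1.10 in cKO, -0.0739 and -0.45 after quantile normalization, and -0.15 in cKO with centring over genes with a mean of at least 10). Replicate numbers recur at both times within a genotype, and whether a number marks 1 pool of cells split between the times is not given in the sources used here. Same-numbered samples hardly deviated together (r = 0.02 in WT and 0.024 in cKO), which does not settle it with 2 libraries per group. With a replicate block, 36 members were higher and 5 lower in WT, 35 and 6 in cKO and 0 in the interaction, while WT and cKO share no number. The planned edgeR and DESeq2 tests were not run because the values are not counts.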

Other observations

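Subunits of 2 mitochondrial complexes also differed in their make-up within a library. Idh3b, the beta subunit of the NAD-dependent isocitrate dehydrogenase, held 40.2% and 38.6% of the coverage of its 3 subunits in WT against 42.8% and 44.7% in cKO at 0 h. At 4 h it held 47.9% and 49.1% in WT against 58.9% and 58.2% in cKO, while Idh3g, the gamma subunit, held 36.3% and 33.0% in WT against 29.8% and 30.4% in cKO, after 46.9% to 48.6% in the 4 libraries at 0 h. Of succinate-CoA ligase, the alpha subunit Suclg1 held 43.5% to 45.2% at 0 h and at 4 h 48.4% and 48.9% in WT against 55.5% and 56.5% in cKO. Suclg2, the GTP-forming beta subunit, held 15.0% and 14.9% in WT against 12.3% and 12.7% in cKO at 0 h, and 9.74% and 12.7% in WT against 8.01% and 7.42% in cKO at 4 h. These shares were chosen after the values were seen and were not tested.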
